A study of Saccharomyces cerevisiae with 8 samples.

Results

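The genes described here encode the calcium entry channel of the yeast plasma membrane, the calcium-activated phosphatase calcineurin with its regulators, the transcription factor Crz1, and the calmodulin-dependent kinases. They are CCH1, MID1, CNA1, CMP2, CNB1, CRZ1, RCN1, RCN2, CMK1 and CMK2, chosen by name for their roles. They make up 10 of the 5449 Saccharomyces cerevisiae genes measured, each read from 1 probe set. Total RNA was hybridised to 8 arrays, of which 4 came from yeast carrying pRS416TEF-Kir2.1-HA, a plasmid for the mammalian inwardly rectifying potassium channel Kir2.1, and 4 from yeast carrying the vector pRSGPD426. Both groups were grown at 26 °C under plasmid selection and collected in the middle of log phase. The plasmids differ by name in more than the Kir2.1 insert, and the labels mark only the vector control arrays as a re-analysis, so neither difference can be told apart from Kir2.1 itself. The strain is not given in the sources used here, and the array was made for yeast genes, so Kir2.1 was not analysed here.

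In budding yeast, calcium enters from outside through a channel formed by Cch1 and Mid1 and binds calmodulin. Calcium-loaded calmodulin activates calcineurin, a phosphatase made of a catalytic subunit, Cna1 or Cmp2, and the regulatory subunit Cnb1. Calcineurin removes phosphate from Crz1, which then enters the nucleus and switches on genes for calcium pumps, cell wall enzymes and feedback regulators such as Rcn1. The same pathway is known for its part in survival of salt, cell wall and membrane stress, and much of its control acts on proteins and their location, which transcript levels do not report.

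Levels below are on a log2 scale on which each array's median gene is 0, computed from the standardized scores that the authors deposited, and a difference is Kir2.1 minus vector control. For example, the deposited scores of RCN2 were 1.47, 0.926, 1.58 and 1.07 array standard deviations on the Kir2.1 arrays and 1.52, 1.14, 1.18 and 1.10 on the control arrays. All 10 genes lay above the background on all 8 arrays, the background being the 95th percentile of the 1746 Schizosaccharomyces pombe probe sets on the array. The level of 1 probe set cannot be set against that of another, so genes are compared here by their differences and not by their levels.

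The arrays did not sort by label alone. The mean of 12 iron regulon genes, which yeast switches on when iron is short, was 2.1 and 2.17 on Kir2.1 replicates 1 and 3 and 1.79 on vector control replicate 1, and lay between -0.92 and -0.25 on the other 5 arrays. Across all genes, 16.7% had their 3 highest values on exactly those 3 arrays and 18.4% their 3 lowest. Kir2.1 replicate 2 was most alike to vector control replicate 3, Kir2.1 replicate 4 to vector control replicate 4, and vector control replicate 1 to Kir2.1 replicate 3. The standard deviation within the group was larger among the Kir2.1 arrays for 84.0% of all genes. Results are therefore also given without the 3 iron-high arrays, and without Kir2.1 replicate 2 and vector control replicate 1. The first omission leaves Kir2.1 replicates 2 and 4 and vector control replicates 2, 3 and 4. Both sets of omitted arrays were picked with their values known.

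None of the 10 genes passed the test between the groups. With limma over all 5449 genes, 0 of the 10 and 0% of all genes passed after Benjamini-Hochberg adjustment (threshold 0.05), and the smallest adjusted p was 0.586 among the 10 and 0.551 among all genes. At an unadjusted p under 0.05 stood 1 of the 10 genes, CNB1, beside 8.35% of all genes. The mean was higher in the Kir2.1 arrays for 8 of the 10 genes, beside 58.7% of all genes, and the median difference was 0.09, beside 0.03 over all genes. After quantile normalization the count was also 8 of 10, beside 48.9% of all genes, whereas with no centring, which lowers every difference by the same amount (-0.13), it was 2 of 10, beside 21.4%. Without the 3 iron-high arrays it was 6 of 10, beside 57.5% of all genes, which is about the same share. The median difference was 0.15 without Kir2.1 replicate 2 and 0.04 without Kir2.1 replicate 4. In 0 of the 10 genes did all Kir2.1 values lie above or below all control values, beside 5.05% of all genes above and 1.54% below. The 95% intervals of this fit, taken gene by gene, ran from 0.853-fold to 1.41-fold over the 10 genes, so all 10 lay within 2-fold in either direction. They do not cover the choice of centring or of the rebuilt zero.

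**Figure D1:**
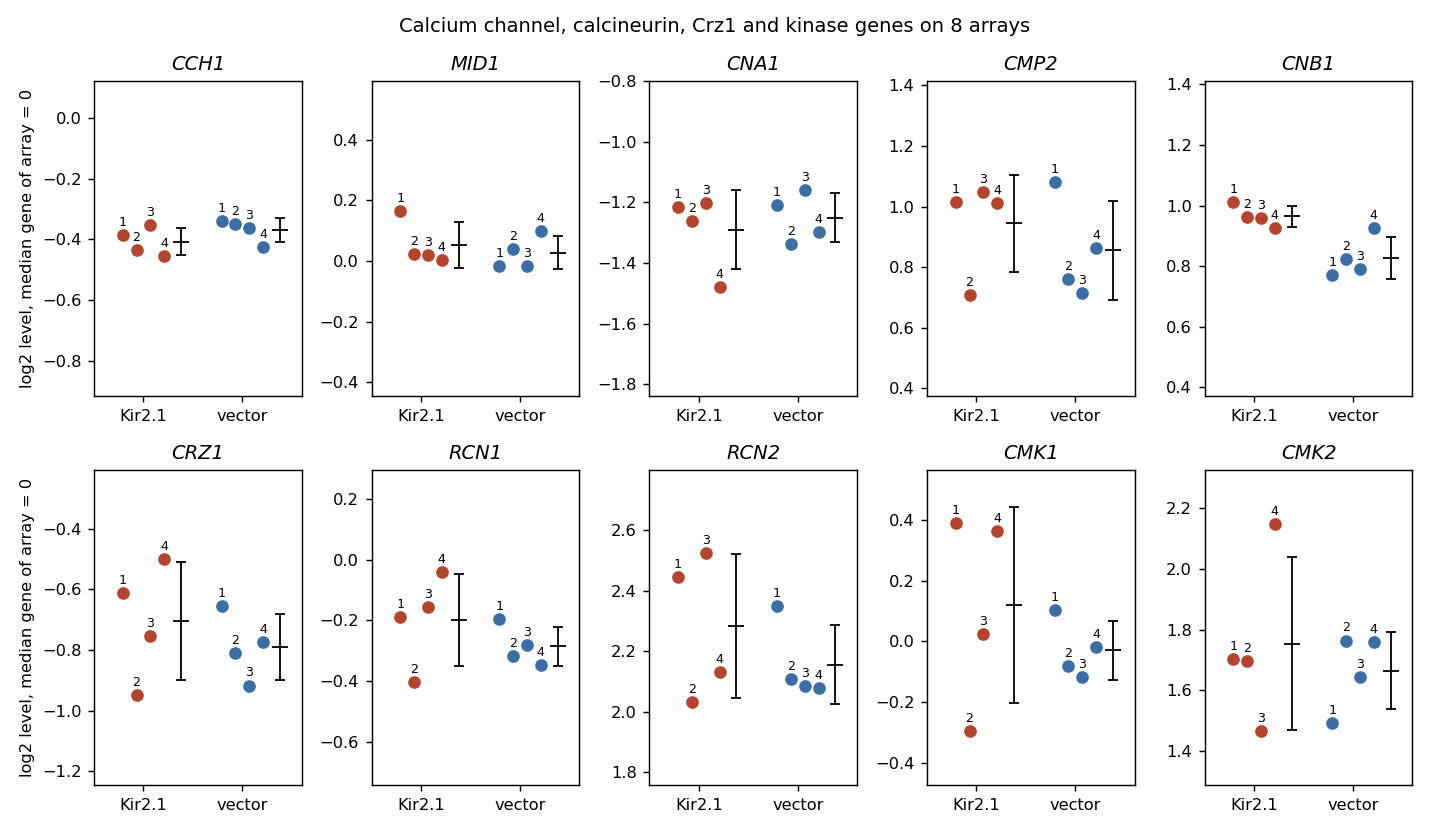
Log2 level of each of the 10 genes on the 8 arrays, with each array's median gene at 0; digits are replicate numbers, bars are mean and standard deviation of the 4 arrays of a group, and every panel spans the same height. Kir2.1 points overlap the control points in every panel; in CNB1 the overlap is between replicate 4 of each group, and the Kir2.1 points of CMK1 spread over 0.69.

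Of the channel genes, CCH1 spread least within the groups of all 10 genes. CCH1 (YGR217W), which encodes the pore-forming subunit, stood at -0.39, -0.43, -0.35 and -0.45 in the Kir2.1 arrays and at -0.34, -0.35, -0.36 and -0.43 in the control arrays. The groups overlapped, and the 4 values of a group spanned 0.10 in the Kir2.1 arrays and 0.09 in the control arrays. The difference was -0.04 (SE 0.05, 95% interval -0.16 to 0.08, limma adjusted p = 0.822). The standard deviation of CCH1 within groups was 0.04, at percentile 2.42 of all genes, so its interval is among the narrowest here. MID1 (YNL291C), whose product is the regulatory partner in the channel, stood at 0.16, 0.02, 0.02 and 0.002 in the Kir2.1 arrays and at -0.02, 0.04, -0.02 and 0.10 in the control arrays. The highest value was that of Kir2.1 replicate 1, and the other 3 Kir2.1 values lay inside the control range. MID1 differed by 0.02 (SE 0.06, 95% interval -0.11 to 0.16, limma adjusted p = 0.891), and the sign turned without Kir2.1 replicate 1 (-0.01).

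Of the calcineurin subunit genes, CNB1 had the clearest difference of the 10 genes and still missed the threshold. CNB1 (YKL190W), the regulatory subunit that binds calcium, stood at 1.01, 0.962, 0.959 and 0.926 in the Kir2.1 arrays and at 0.771, 0.823, 0.790 and 0.927 in the control arrays. All Kir2.1 values lay above control replicates 1 to 3, and control replicate 4 lay level with the lowest Kir2.1 value. Group means were 0.96 ± 0.04 in the Kir2.1 arrays and 0.83 ± 0.07 in the control arrays (SD, n = 4 each). The difference was 0.14 (SE 0.06, 95% interval 0.01 to 0.27), or 1.10-fold, with an unadjusted limma p of 0.0397, rank 367 of 5449 genes, and an adjusted p of 0.586. It was 0.12 to 0.17 with any single array left out, 0.10 without the 3 iron-high arrays (adjusted p = 0.686), 0.12 without Kir2.1 replicate 2 and vector control replicate 1 (adjusted p = 0.254), and 0.10 after quantile normalization. With no centring it was 0.0072.

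For the catalytic subunit genes, the groups overlapped more widely. CMP2 (YML057W) stood at 1.02, 0.71, 1.05 and 1.01 in the Kir2.1 arrays and at 1.08, 0.76, 0.71 and 0.86 in the control arrays. Kir2.1 replicate 2 was the lowest of all 8 arrays and vector control replicate 1 the highest, so each lay at the far end of the other group. The difference was 0.09 (SE 0.11, limma adjusted p = 0.789). Without Kir2.1 replicate 2 and vector control replicate 1 it was 0.24 (adjusted p = 0.0578), a value that rests on leaving out arrays known by their values to lie near the other group. CNA1 (YLR433C), the other catalytic subunit gene, stood at -1.22, -1.26, -1.20 and -1.48 in the Kir2.1 arrays and at -1.21, -1.34, -1.16 and -1.30 in the control arrays. The low value of Kir2.1 replicate 4 set the sign: CNA1 differed by -0.04 over all arrays (SE 0.08, limma adjusted p = 0.867) and by 0.02 without that array.

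CRZ1 (YNL027W), the zinc finger transcription factor that calcineurin activates, varied more within the groups than between them. It stood at -0.61, -0.95, -0.75 and -0.50 in the Kir2.1 arrays and at -0.66, -0.81, -0.92 and -0.77 in the control arrays. The Kir2.1 arrays held both the highest value, on replicate 4, and the lowest, on replicate 2. CRZ1 differed by 0.09 (SE 0.10, 95% interval -0.15 to 0.32, limma adjusted p = 0.792), and group membership took up 9.02% of its variance over the 8 arrays.

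The feedback regulators of calcineurin shared their lowest array, Kir2.1 replicate 2, but not their highest, which was Kir2.1 replicate 4 for RCN1 and replicate 3 for RCN2. RCN1 (YKL159C), the yeast calcipressin and a known Crz1 target, stood at -0.19, -0.40, -0.16 and -0.04 in the Kir2.1 arrays and at -0.20, -0.32, -0.28 and -0.35 in the control arrays. Kir2.1 replicate 4 was highest and Kir2.1 replicate 2 lowest, the same ends as for CRZ1. The difference was 0.09 (SE 0.08, 95% interval -0.10 to 0.28, limma adjusted p = 0.753). RCN2 (YOR220W), a related calcineurin-binding protein, stood at 2.44, 2.03, 2.53 and 2.13 in the Kir2.1 arrays and at 2.35, 2.11, 2.08 and 2.08 in the control arrays. Its 3 highest values, 2.44 and 2.53 on Kir2.1 replicates 1 and 3 and 2.35 on vector control replicate 1, were on the 3 arrays with high iron regulon means, and the other 5 arrays lay between 2.03 and 2.13. RCN2 differed by 0.13 (SE 0.12, limma adjusted p = 0.755) over all arrays and by -0.0088 (adjusted p = 0.969) without those 3 arrays. Those arrays hold the 3 highest RCN2 values, mostly Kir2.1 values, so leaving them out tends to lower the difference. The smaller difference carries no weight by itself, and the part of the iron state in the RCN2 values was not tested.

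**Figure D2:**
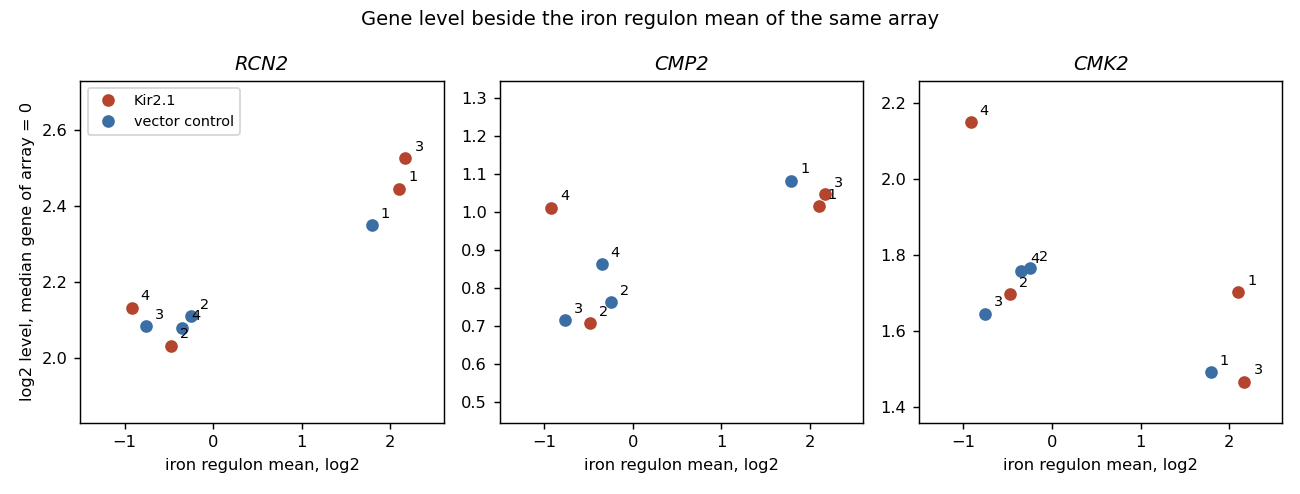
Log2 level of RCN2, CMP2 and CMK2 on each array (vertical axis) against the mean log2 level of 12 iron regulon genes on that array (horizontal axis); digits are replicate numbers. For RCN2, Kir2.1 replicates 1 and 3 and vector control replicate 1 lie apart at 2.35 to 2.53, whereas for CMK2 the highest point is Kir2.1 replicate 4 at 2.15.

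Of the 10 genes, CMP2 also had its 3 highest values on the iron-high arrays, but with a narrow gap: they spanned 1.015 to 1.082, and Kir2.1 replicate 4 followed at 1.011. That makes 2 of 10 genes, beside 16.7% of all genes, and 0 of 10 had their 3 lowest values there, beside 18.4%. A share near that of all genes is no result about these genes.

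The calmodulin-dependent kinase genes had the widest spread among the Kir2.1 arrays. CMK1 (YFR014C) stood at 0.39, -0.30, 0.03 and 0.36 in the Kir2.1 arrays and at 0.10, -0.08, -0.12 and -0.02 in the control arrays. Kir2.1 replicates 1 and 4 were above every control array and Kir2.1 replicate 2 was below every one. The standard deviation was 3.33 times as large in the Kir2.1 arrays. CMK1 differed by 0.15 (SE 0.15, 95% interval -0.19 to 0.49, limma adjusted p = 0.760). Single arrays moved this value: it was 0.06 without Kir2.1 replicate 1, 0.07 without Kir2.1 replicate 4 and 0.29 without Kir2.1 replicate 2. CMK2 (YOL016C), also a known Crz1 target, stood at 1.70, 1.70, 1.47 and 2.15 in the Kir2.1 arrays and at 1.49, 1.76, 1.64 and 1.76 in the control arrays. Kir2.1 replicate 4 stood alone at the top, while Kir2.1 replicate 3 and vector control replicate 1 were the 2 lowest. CMK2 differed by 0.09 (SE 0.14, limma adjusted p = 0.838) with all arrays and by -0.04 without Kir2.1 replicate 4.

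Array weights, which let limma count the more scattered arrays less, changed the calls. They gave Kir2.1 replicates 2 and 4 weights of 0.231 and 0.267 and vector control replicate 1 a weight of 0.372. The iron-high Kir2.1 replicates 1 and 3 had weights of 1.839 and 0.861, and vector control replicates 2, 3 and 4 had 3.13, 2.087 and 4.2. In this fit, Kir2.1 and the iron state can hardly be told apart. RCN2 was then called at a difference of 0.31 (limma adjusted p = 0.0214) and CMK1 at 0.30 (adjusted p = 0.0458). These were 2 of 10 genes called higher, beside 18.7% of all genes called higher (31.8% called in either direction) in that fit, which is about the same share. Leaving out Kir2.1 replicate 2 and vector control replicate 1 called 0 of the 10 genes, beside 9.32% of all genes.

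**Figure D3:**
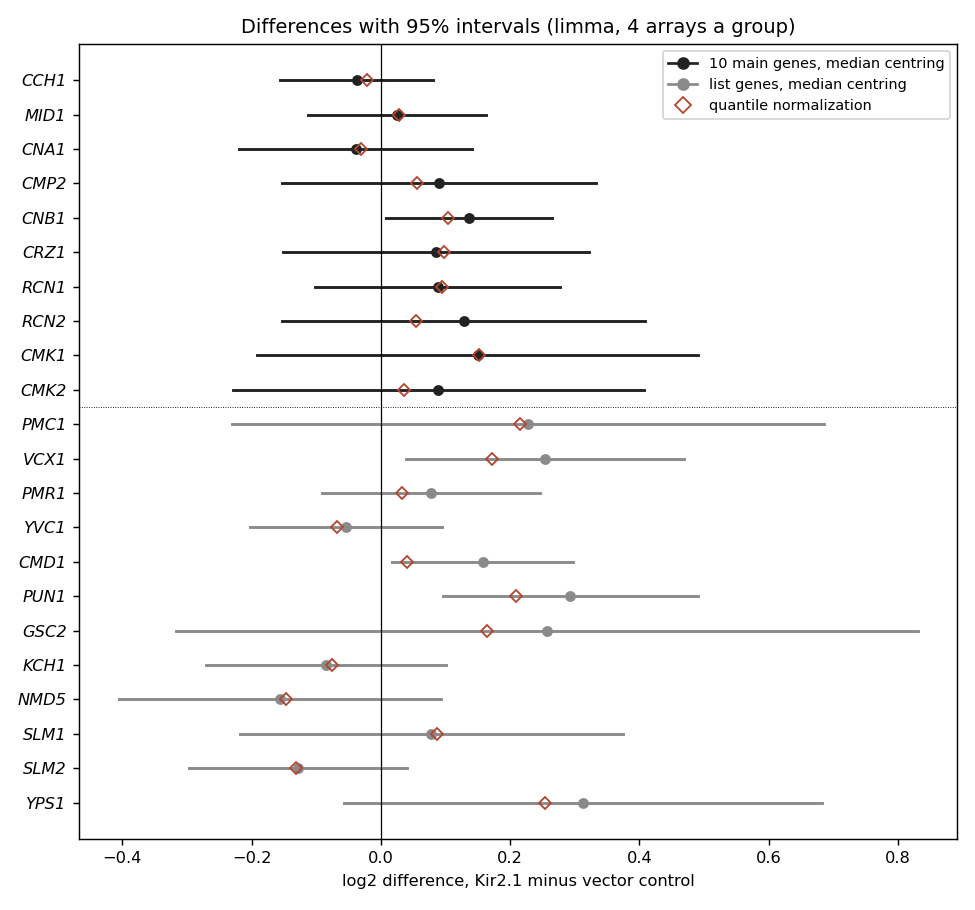
Log2 difference, Kir2.1 minus vector control, for the 10 genes (black) and for the named genes of the pathway lists (grey), with limma 95% intervals; open diamonds give the difference after quantile normalization. The intervals of 9 of the 10 genes cross 0, that of CNB1 runs from 0.01 to 0.27, and the diamond lies within the interval for every gene drawn.

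Within each pair of related genes, the balance shifted between arrays, and the ranges of the groups overlapped. The log2 ratio of CNA1 to CMP2, expressed around its 8-array mean, was -0.06, 0.20, -0.08 and -0.32 in the Kir2.1 arrays and -0.12, 0.07, 0.30 and 0.01 in the control arrays, and the ranges overlapped. That of RCN1 to RCN2 was -0.17, 0.03, -0.22 and 0.29 in the Kir2.1 arrays and -0.09, 0.03, 0.10 and 0.04 in the control arrays. Both ends of that ratio were Kir2.1 arrays. That of CMK1 to CMK2 was 0.35, -0.33, 0.22 and -0.12 in the Kir2.1 arrays and 0.28, -0.18, -0.10 and -0.11 in the control arrays, with its 3 highest values on the iron-high arrays. The ratio of CCH1 to MID1, the subunits of 1 channel, moved least, over a range of 0.23, against 0.51 to 0.68 for the others. Each of these 2 genes spread little within groups (standard deviation at percentiles 2.42 and 11.2 of all genes). That alone keeps their ratio in a small range, which therefore says nothing about a balance between them. Group differences of these 4 ratios lay between -0.13 and 0.06 and were not tested.

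For each of the 10 genes, the gene most like it was sought among the 4532 other genes above background on all 8 arrays, by Pearson's r of log2 levels over the 8 arrays. RCN2 was most like HUL5 (r = 0.995). CMK1 was most like FAR8 (r = 0.992), CRZ1 like SMY1 (r = 0.988), CMP2 like PSK1 (r = 0.987), CMK2 like VMA22 (r = 0.976) and RCN1 like RBK1 (r = 0.971). Likeness was lower for CNB1 with VMA11 (r = 0.953), CCH1 with GID7 (r = 0.940), CNA1 with UBC12 (r = 0.918) and MID1 with ELO1 (r = 0.908). The number of genes with r over 0.9 ran from 1 for MID1 to 311, or 6.86%, for RCN2. Each r named is the highest of 4532 over only 8 arrays, which favours high values, and these values carry no test.

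The pathway was followed outward through 4 lists, chosen with earlier results of these data known. Together they hold 30 genes, of which 29 were measured and ENA1, a sodium pump gene, was not analysed here. None of the 29 was called, beside 0% of all genes, and 5 of 29 had an unadjusted limma p under 0.05, beside 8.35% of all genes. The mean was higher in the Kir2.1 arrays for 21 of the 29, beside 58.7% of all genes, and with no centring for 12 of the 29, beside 21.4%.

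Among targets of Crz1 outside the 10 genes, the Kir2.1 mean was above the control mean in 11 of 11 measured, beside 58.7% of all genes. Their median difference was 0.23, beside 0.03 over all genes. The same 11 of 11 held after quantile normalization (median 0.16), beside 48.9% of all genes (median -0.003). It also held without the 3 iron-high arrays (median 0.18), beside 57.5% (median 0.025). With no centring it was 8 of 11 (median 0.10), beside 21.4% (median -0.10). With single arrays left out it stayed 11 of 11, beside 57.1% to 59.6% of all genes. The median of the 11 moved to 0.14 without Kir2.1 replicate 3 and 0.36 without Kir2.1 replicate 2. Of the 11, 0 were called and 3 had all Kir2.1 values above all control values (PUN1, SCW10 and KRE6), beside 5.05% of all genes. SCW10, which encodes a cell wall glucanase-like protein, and KRE6, needed for beta-glucan of the wall, were singled out after their values were seen. SCW10 differed by 0.17 (SE 0.05, limma adjusted p = 0.551) and KRE6 by 0.11 (SE 0.05, adjusted p = 0.627). Several of these genes belong to the cell wall, and the list overlaps one examined earlier on these arrays, so it is no independent evidence.

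PUN1 (YLR414C), a plasma membrane protein gene, stood at 2.75, 2.47, 2.62 and 2.83 in the Kir2.1 arrays and at 2.45, 2.29, 2.40 and 2.37 in the control arrays. The lowest Kir2.1 value, that of replicate 2, lay just above the highest control value, that of replicate 1. PUN1 differed by 0.29 (SE 0.09, 95% interval 0.10 to 0.49, limma adjusted p = 0.551) and by 0.21 after quantile normalization. YPS1 (YLR120C), an aspartyl protease gene of the cell surface, had the largest difference of the list. It stood at 2.48, 1.95, 2.44 and 2.51 in the Kir2.1 arrays and at 2.39, 1.98, 1.79 and 1.98 in the control arrays, so Kir2.1 replicate 2 lay among the controls and vector control replicate 1 near the Kir2.1 arrays. YPS1 differed by 0.31 (SE 0.16, limma adjusted p = 0.656).

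Of the 29 list genes, 7 (24.1%) had their 3 highest values on the iron-high arrays, beside 16.7% of all genes, and 1 its 3 lowest, beside 18.4%. PMC1, GSC2 and VCX1 were among the 7. PMC1 (YGL006W), the pump that moves calcium into the vacuole, stood at 0.90, 0.25, 1.09 and 0.50 in the Kir2.1 arrays and at 0.85, 0.35, 0.30 and 0.33 in the control arrays. PMC1 differed by 0.23 (SE 0.20, limma adjusted p = 0.736), and by 0.05 (adjusted p = 0.862) without the 3 iron-high arrays. GSC2 (YGR032W), an alternative catalytic subunit of glucan synthase, stood at 3.14, 2.30, 3.35 and 2.68 in the Kir2.1 arrays and at 3.13, 2.40, 2.38 and 2.54 in the control arrays. GSC2 differed by 0.26 (SE 0.25, limma adjusted p = 0.757), and by 0.05 (adjusted p = 0.889) without those 3 arrays. Those arrays hold the 3 highest values of both genes, mostly Kir2.1 values, so leaving them out tends to lower the difference. The smaller differences carry no weight by themselves, and the part of the iron state in them was not tested.

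With array weights 8 of the 11 targets were called higher, beside 18.7% of all genes, and without Kir2.1 replicate 2 and vector control replicate 1 it was 5 of 11, beside 5.98% of all genes. In that second fit YPS1 (difference 0.56, limma adjusted p = 0.0210) and PUN1 (0.39, adjusted p = 0.0325) passed. Both settings give less or no weight to arrays that lie near the other group. They also give less or no weight to the only iron-high control array, while both iron-high Kir2.1 arrays stay in. In both settings, Kir2.1 and the iron state can hardly be told apart.

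**Figure D4:**
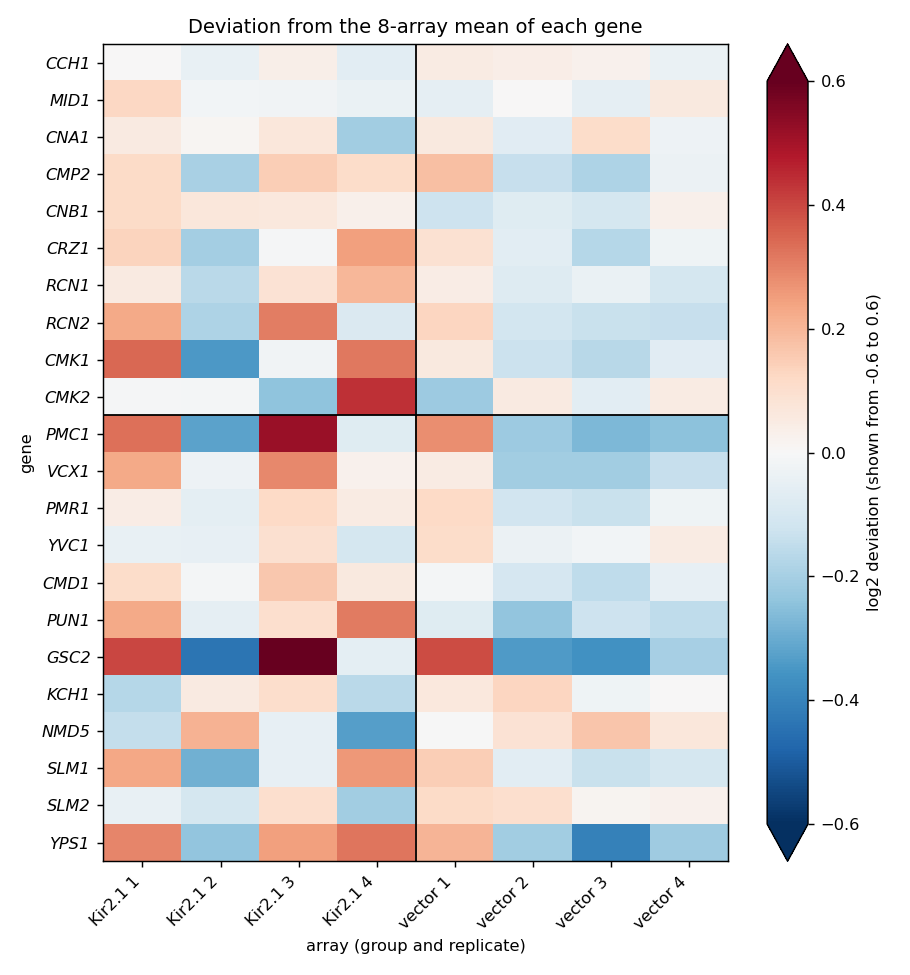
Deviation of each gene's log2 level from its own mean over the 8 arrays, with the 10 genes above the line and named pathway genes below it, Kir2.1 arrays left and vector control arrays right. PMC1, GSC2 and RCN2 are high on Kir2.1 replicates 1 and 3 and vector control replicate 1, and CMK2, CRZ1, RCN1 and PUN1 are highest on Kir2.1 replicate 4.

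Calcium transport genes other than CCH1 and MID1 showed no common direction. The Kir2.1 mean was the higher one for 6 of 11 genes, beside 58.7% of all genes, and the median difference was 0.01, beside 0.03. The count was 5 of 11 after quantile normalization, beside 48.9%, and 4 of 11 with no centring, beside 21.4%. Among genes above background on at least 4 arrays it was 6 of 9 (median 0.08), beside 57.5% (median 0.02). VCX1 (YDL128W), the vacuolar exchanger of calcium for protons, stood at 2.68, 2.43, 2.74 and 2.48 in the Kir2.1 arrays and at 2.51, 2.25, 2.25 and 2.32 in the control arrays. Only vector control replicate 1 reached into the Kir2.1 range. VCX1 differed by 0.25 (SE 0.09, limma adjusted p = 0.568), by 0.17 after quantile normalization, and passed without Kir2.1 replicate 2 and vector control replicate 1 (0.36, adjusted p = 0.0432). PMR1, the calcium and manganese pump of the Golgi, differed by 0.08 (SE 0.07), and YVC1, the vacuolar release channel, by -0.05 (SE 0.07), with limma adjusted p of 0.753 and 0.790. KCH1, a membrane protein gene linked to potassium and calcium influx, differed by -0.09 (SE 0.08, limma adjusted p = 0.754). FIG1 and PRM6, which are known from the mating response, were above background on 0 of the 8 arrays.

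CMD1 (YBR109C), the calmodulin gene, stood at 3.22, 3.10, 3.27 and 3.17 in the Kir2.1 arrays and at 3.10, 3.01, 2.96 and 3.07 in the control arrays. Every Kir2.1 value lay above every control value, though Kir2.1 replicate 2 and vector control replicate 1 were level at 3.10. CMD1 differed by 0.16 (SE 0.06, 95% interval 0.02 to 0.30, limma adjusted p = 0.568) and by 0.04 after quantile normalization. Of the 5 genes in its list, 4 averaged higher in the Kir2.1 arrays, beside 58.7% of all genes. After quantile normalization it was 2 of 5, beside 48.9%, and with no centring 1 of 5, beside 21.4%. NMD5, the importin that carries Crz1 into the nucleus, differed by -0.16 (SE 0.11, limma adjusted p = 0.711). Of 4 calcineurin substrates and partners, 2 had a higher mean, beside 58.7% of all genes, and 0 with no centring, beside 21.4%. SLM1 differed by 0.08 (SE 0.13, limma adjusted p = 0.845) and SLM2 by -0.13 (SE 0.07, limma adjusted p = 0.689). These 2 genes encode related proteins that bind membrane lipids.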

How the data were processed

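The authors deposited a standardized score per probe set: on each of the 8 arrays the 10715 probe sets average 0 with a standard deviation of 1, with lowest scores from -0.473 to -0.439 and highest from 8.49 to 9.22. RNA was labelled with Affymetrix's 3'IVT Express kit, per the labels' protocols. For the probe summary, background step and software, the method is not given in the sources used here. A log2 scale was rebuilt by placing zero 0.005 standard deviations below each array's lowest score and centring on the median gene. Of the probe sets, 5498 had 1 S. cerevisiae gene in the platform annotation, with symbols updated through the RefSeq R64 table; the brightest probe set stood for a gene. The group difference was fitted with limma 3.58.1, R 4.3.3 (two-sided, group as the only term) over all 5449 genes, and the fit was tested on simulated data. The series calls its replicates biological; the number of arrays limits the precision, with a median SE of 0.09. The genes, lists and alternatives were chosen with earlier results of these data known. Named genes are the 10 genes, PMC1, VCX1, PMR1, YVC1, CMD1, PUN1 and GSC2, the extremes of each list, and the gene most like each of the 10. Promoter and protein sequences were not used here. Alternatives were other zeros (0.001, 0.02), centring, quantile normalization, a dim filter, mean probe sets, array weights, a replicate block and omitted arrays.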

Additional observations from a re-analysis of the deposited data

Results flagged for a closer look

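In 5 of 44 groups of 4 arrays (22 named genes, 2 groups each), the highest or lowest array was flagged by Dixon's rule. A flag means that it lay apart from the other 3 by more than the 95% critical share of the range. Chance gives about 5% of independent groups, but these groups read the same 8 arrays through different genes and are not independent. MID1 was high on Kir2.1 replicate 1 (0.16), with the other Kir2.1 arrays at 0.002 to 0.02. CMP2 was low on Kir2.1 replicate 2 (0.71, others 1.01 to 1.05), and YPS1 was low on the same array (1.95, others 2.44 to 2.51). RCN2 and PMC1 were high on vector control replicate 1, at 2.35 (others 2.08 to 2.11) and 0.85 (others 0.30 to 0.35), which is the control array with the high iron regulon mean of 1.79. The causes were not tested.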

How the results depend on the processing

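Of 190 differences (10 genes, 19 alternatives), 174 kept direction and side of the threshold, 2 came to pass it and 14 turned sign, none of them past the threshold. With no centring MID1 stood at -0.10, CMP2 at -0.040, CRZ1 at -0.044, RCN1 at -0.041, CMK2 at -0.040 and RCN2 at -0.0014. Outside the 10 genes, the list genes PMR1 (-0.052) and SLM1 (-0.051) also turned sign with no centring. Centring on the 75th percentile turned MID1 (-0.019), omitting the 3 iron-high arrays MID1 (-0.029) and RCN2 (-0.0088), and array weights CNA1 (0.040) and CMK2 (-0.050). Over single omissions MID1 ran from -0.012 to 0.048, CNA1 from -0.068 to 0.025 and CMK2 from -0.043 to 0.18. Array weights called 2 of the 10 genes, 1735 genes in all and 11 list genes; omitting Kir2.1 replicate 2 and vector control replicate 1 called 0, 508 and 6. The median difference of the 10 genes ran from 0.04 to 0.15 over single omissions. Replicate numbers are shared by the groups, and the values cannot settle whether they pair the arrays. Deviations of same-numbered arrays correlated at 0.808, 0.693, -0.657 and 0.388, and 2 of 8 arrays were most like their own number. With the replicate block 0 genes were called, 525 instead of 455 had an unadjusted p under 0.05, and CNB1 had an adjusted p of 0.520. The causes were not tested. Dim genes depend most on the rebuilt zero; the other zeros left the 10 genes' median at 0.09 each.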

Other observations

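Some arrays held the extremes of several of the 10 genes at once. CRZ1, RCN1 and CMK2 each had their highest value of all 8 arrays on Kir2.1 replicate 4, which held the highest value of 21.5% of all genes. CCH1 and CNA1 had their lowest there, beside 19.4% of all genes. MID1, CNB1 and CMK1 were highest on Kir2.1 replicate 1, beside 16.4% of all genes. On vector control replicate 1, CCH1 and CMP2 were highest, beside 7.96% of all genes, and MID1 and CNB1 lowest, beside 16.7%. CMP2, CRZ1, RCN1, RCN2 and CMK1 each had their lowest value on Kir2.1 replicate 2, which held the lowest value of 15.6% of all genes. Vector control replicates 2 and 4 held no extreme of the 10 genes. Replicate 2 held the highest value of 6.44% and the lowest of 8.31% of all genes, and replicate 4 the highest of 2.73% and the lowest of 1.84%.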
